A study of Mus musculus with 6 samples.

Results

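The 8 genes described here encode proteins of the peripheral myelin sheath: Mbp and Pmp22 of compact myelin, Mag, Prx, Ncmap and Cldn19 of its non-compact parts and surfaces, and the membrane proteolipids Mal and Pllp. They were taken by name, as 8 of the 41605 genes in the tables, and all 8 were detected. The data are droplet-based single-cell RNA counts from mouse sciatic nerve at postnatal day 1 (P1) and at P60, with 3 libraries per age, each a separate run on a separate pooled suspension of male and female mice in equal parts. Animals of both ages were on the C57bl/6J background and carried a Cre transgene active in the Schwann cell lineage, the Cre-dependent ReYFP reporter that marks Schwann cells (SCs), and βAct-DsRed, which marks all cells. DsRed-positive cells were sorted at both ages, and at P1 the double-positive SCs were also depleted in part, so the share of SCs at that age was set by the sort. The comparisons ask in which SC states and at which age these myelin genes were on, and in which other cells of the nerve their RNA was found.

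As background, the myelin sheath is a spiral of SC membrane. In compact myelin the cytoplasm is squeezed out between wraps, and Mbp, a basic protein of the cytoplasmic face, and Pmp22, a tetraspan membrane protein whose gene dosage underlies common inherited neuropathies, are among its constituents. Non-compact myelin keeps cytoplasm and lies in the inner and outer collars, the paranodal loops and the Schmidt-Lanterman incisures. Mag, a sialic acid-binding adhesion molecule, sits on the membrane that faces the axon. Prx (periaxin) links the outermost membrane to the cytoskeleton and basal lamina, Cldn19 is the claudin of the tight junctions between wraps, and Ncmap is a small membrane protein of non-compact myelin. Mal and Pllp (plasmolipin) are MARVEL-domain proteins of lipid-rich membrane that act in the sorting of membrane cargo and are also known from epithelia. SCs that ensheathe small axons without myelinating them are called Remak cells.

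SCs and their states were found from raw counts of unique molecular identifiers (UMIs, 1 per captured RNA molecule) by marker panels that hold none of the 8 genes. The Schwann panel (Sox10, Erbb3, Cdh19 and 7 others) summed to 3350 to 3394 CPM, the usual scaling of counts to a common library total, in Schwann-gated cells at P1 and to 3010 to 3649 CPM at P60, with none of its 10 genes at 0. The sums hold opposite shifts: Egfl8 stood at 1983 to 2034 CPM at P1 and 327 to 631 CPM at P60, and Cdh19 at 38.5 to 43.8 and 249 to 626 CPM. Cells were gated on these genes, so the sums are no separate evidence of identity. In all, 3002 cells at P1 and 287 at P60 were gated as SCs. SCs were then split without the members. Cells with more genes of Pou3f1, Egr2, Drp2, Gldn, Fa2h and Ugt8a than of Ngfr, Ncam1, L1cam, Scn7a, Sox2, Cdh2 and Gfra3 are called myelinating-side SCs (1802 at P1, 103 at P60), and those with the opposite balance immature or Remak-side SCs (461 and 171). Cells with at least 2 of 6 cell cycle genes are called proliferating SCs (481 at P1 and 2 at P60, the latter not used). These are names for the balance of the panels, not types named by the authors. In these data the paper calls the P1 SC clusters proliferating, immature and most likely pro-myelinating. At P60 it describes myelinating and Remak SCs. A comparison of ages within a side may therefore also compare stages of SCs.

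The 6 libraries held 3435 to 4586 cells each after a filter of 500 to 5000 genes per cell, and 20203440 to 30334608 UMIs over all barcodes. Between 13 and 32 cell barcodes were shared by any pair of libraries, at most 0.932% of the smaller one. P60 replicate 3 stood apart. It had the lowest median depth (3627 UMIs per cell), 16.3% of its cells had at least 10% mitochondrial UMIs against 2.97% and 4.84% in the other P60 libraries, and its immature or Remak-side cells held 4526 CPM of the gate gene Scn7a against 1537 and 1475. Median depth per cell was 6364 to 7115 UMIs in myelinating-side and 4800.5 to 4943 in immature or Remak-side SCs at P1, and 2649 to 3561 and 1785 to 2472 at P60. The P60 states rest on 30 to 43 and 35 to 98 cells per library, so their values carry the larger error.

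In the GRCm38 annotation the genes other than Mbp lie at chr11:63128982-63159547 on the plus strand (Pmp22), chr7:30899176-30914873 on the minus strand (Mag), chr7:27499324-27520214 on the plus strand (Prx), chr4:135369576-135398227 on the minus strand (Ncmap), chr4:119255414-119262438 on the plus strand (Cldn19), chr2:127633226-127656695 on the minus strand (Mal) and chr8:94674894-94696278 on the minus strand (Pllp). None of these 7 overlaps another gene on its own strand. The bases that precede the annotated start of 4 of them are shown because the results turn on these genes: Mal and Pllp were found in endothelial cells as well as in SCs, and Ncmap and Prx, of non-compact myelin, differed between SC states. Capitals mark GGGCGG (GC box) or GTGGGNG (a core of EGR-type sites), searched on both strands together with ACAAAG (SOX-type) and TATAAA. Prx is written on the plus strand and the others on the minus strand, and the sequences are from RefSeq, GRCm38.p6.
Mal, chr2:127656696-127656945: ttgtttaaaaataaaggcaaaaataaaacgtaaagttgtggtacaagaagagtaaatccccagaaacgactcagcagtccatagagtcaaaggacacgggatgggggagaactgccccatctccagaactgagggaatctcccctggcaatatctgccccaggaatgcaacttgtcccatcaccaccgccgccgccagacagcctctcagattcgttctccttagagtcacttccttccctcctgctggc
Pllp, chr8:94696279-94696492: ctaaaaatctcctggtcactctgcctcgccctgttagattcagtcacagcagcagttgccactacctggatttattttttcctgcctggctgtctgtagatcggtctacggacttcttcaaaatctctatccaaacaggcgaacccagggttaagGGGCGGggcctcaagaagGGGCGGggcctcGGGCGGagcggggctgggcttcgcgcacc
Ncmap, chr4:135398228-135398477: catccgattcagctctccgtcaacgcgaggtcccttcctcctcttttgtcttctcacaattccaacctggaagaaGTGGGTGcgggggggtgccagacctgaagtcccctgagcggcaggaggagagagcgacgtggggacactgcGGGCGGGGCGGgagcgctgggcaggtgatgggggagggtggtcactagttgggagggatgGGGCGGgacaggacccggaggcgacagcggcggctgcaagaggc
Prx, chr7:27499074-27499323: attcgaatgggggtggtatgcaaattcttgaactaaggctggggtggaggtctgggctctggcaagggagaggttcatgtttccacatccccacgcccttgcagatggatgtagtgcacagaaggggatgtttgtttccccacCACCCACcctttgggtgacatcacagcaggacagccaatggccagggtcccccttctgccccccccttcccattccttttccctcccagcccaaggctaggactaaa

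The window before Mal held none of the 4 motifs. That before Pllp, trimmed to the 214 bases outside the annotated gene, held 3 GGGCGG motifs, that before Ncmap 3 GGGCGG, of which a pair share a base, and 1 GTGGGNG, and that before Prx 1 GTGGGNG. Among 32851 promoter windows of 250 bases, 32.7% held GGGCGG, 28.1% GTGGGNG, 16.5% ACAAAG and 12.4% TATAAA. Of the members, 7 had entries, and among their starts ACAAAG was found before Mag alone, at 2 of its 3 starts. GTGGGNG was also found before both Cldn19 starts and 1 Mag start. A match is a run of letters, and binding was not measured.

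Myelinating-side SCs of both ages carried more RNA of all 8 genes than immature or Remak-side SCs, and the step between the states ran from 1.34-fold for Mal at P1 to at least 233-fold for Ncmap at P60. All levels are CPM of UMIs summed per library and state, counted at the 3′ end once per molecule and so not scaled to transcript length. The compact myelin genes are given first.

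In myelinating-side SCs, Mbp stood at 10665, 10431 and 10552 CPM at P1 and at 9179, 7740 and 4959 CPM at P60. In immature or Remak-side SCs it stood at 2421, 2462 and 2743 CPM at P1 and at 1772, 1585 and 1372 CPM at P60. All P60 values lay under all P1 values in each state, and every myelinating-side value lay above every value of the other state.

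Pmp22 stood at 15749, 15365 and 15764 CPM in myelinating-side SCs at P1 and at 37843, 26166 and 22714 CPM at P60. The other state held 2107, 1890 and 2096 CPM at P1 and at 2687, 2363 and 1701 CPM at P60. The ages did not overlap in the first state and overlapped in the second.

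Mag, the adhesion molecule on the axonal face, stood at 1029, 1056 and 1004 CPM in myelinating-side SCs at P1 and at 368, 548 and 468 CPM at P60. In immature or Remak-side SCs it stood at 145, 166 and 153 CPM at P1 and at 252, 183 and 167 CPM at P60. Each P60 value was thus lower in the first state and, by a small margin, higher in the second, where the P60 values rest on 20 to 35 UMIs per library.

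Prx stood at 1067, 1089 and 1050 CPM in myelinating-side SCs at P1 and at 695, 418 and 1223 CPM at P60, where replicate 3 lay above and the others below all P1 libraries. The opposite state stood at 265, 253 and 276 CPM at P1 and at 0, 9.16 and 47.6 CPM at P60. These P60 values rest on 11 UMIs, of which 10 came from replicate 3.

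Ncmap stood at 758, 760 and 763 CPM in myelinating-side SCs at P1 and at 1530, 1438 and 1902 CPM at P60, with no overlap. Its level in immature or Remak-side SCs was 20.5, 13.1 and 24.7 CPM at P1 and at 0 in each P60 library. With 0 of 438171 UMIs in 3 libraries, a limit of 3 UMIs over the group allows up to 6.85 CPM at P60. The states were thus furthest apart for this gene at both ages.

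Cldn19 stood at 613, 615 and 623 CPM in myelinating-side SCs at P1 and at 1153, 904 and 812 CPM at P60. On the other side it stood at 136, 103 and 120 CPM at P1 and at 0, 0 and 19.1 CPM at P60, the last from 4 UMIs. The ages did not overlap in either state, and they differed in opposite directions.

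Of the MARVEL-domain genes, Mal stood at 1286, 1336 and 1347 CPM in myelinating-side SCs at P1 and at 2152, 1706 and 2188 CPM at P60. In immature or Remak-side SCs it stood at 1099, 991 and 1118 CPM at P1 and at 772, 550 and 924 CPM at P60. It was the member whose states lay closest together at P1, and the states did not overlap at either age.

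Pllp stood at 880, 811 and 850 CPM in myelinating-side SCs at P1 and at 2029, 1740 and 1070 CPM at P60. The immature or Remak-side values were 150, 179 and 184 CPM at P1 and at 33.6, 9.16 and 9.53 CPM at P60, from 7 UMIs in all. As for Cldn19, the P60 libraries lay above the P1 libraries on the myelinating side and below them on the other.

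**Figure D1:**
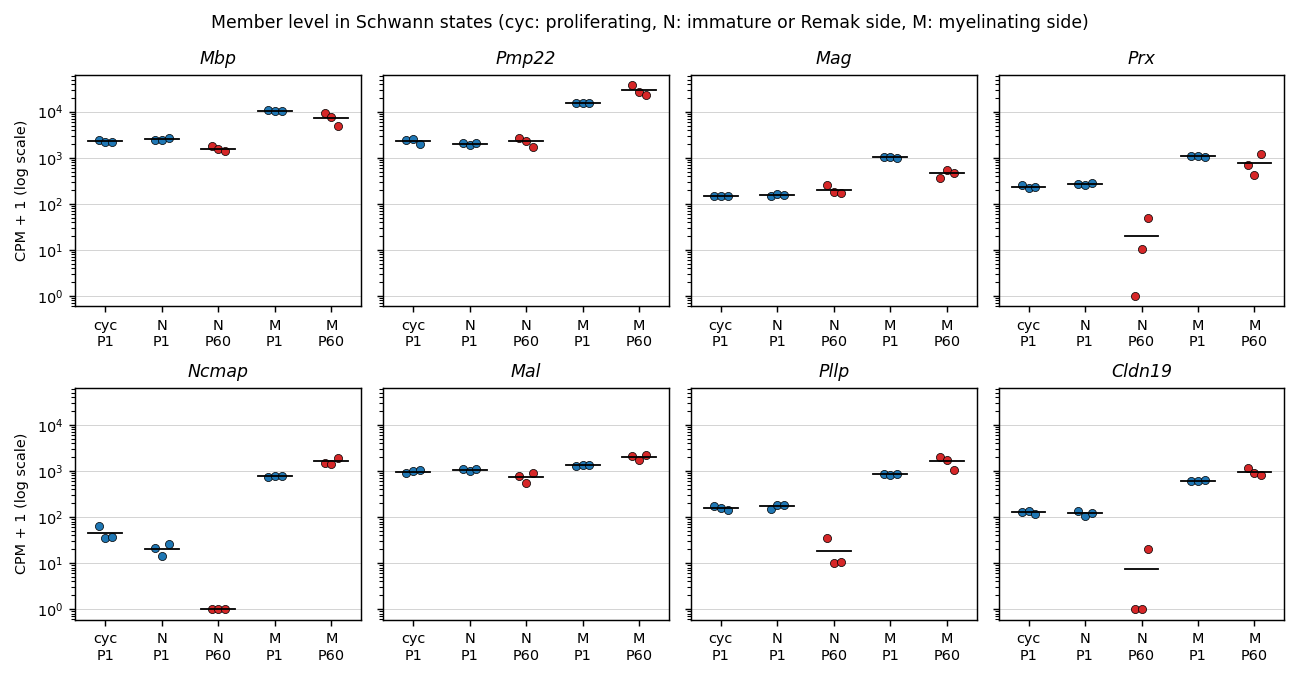
Level of each member in SC states, with CPM + 1 on a log scale on the vertical axis, 1 point per library (blue P1, red P60) and a bar at the mean of 3 libraries; "cyc" marks proliferating SCs, N immature or Remak-side SCs and M myelinating-side SCs. Prx, Ncmap, Pllp and Cldn19 drop to between 0 and 47.6 CPM in N at P60, whereas Mag, the lowest of the other 4 there, stays at 167 CPM or more.

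Proliferating SCs at P1 resembled immature or Remak-side SCs in their levels: Mbp 2458, 2206 and 2172 CPM, Mal 888, 992 and 1027 CPM, and Ncmap 63.8, 34.6 and 35.9 CPM. The 3 libraries of these states overlapped for Mbp, Pmp22, Mag, Mal, Pllp and Cldn19. For Ncmap every proliferating library lay above every immature or Remak-side library, and for Prx the highest proliferating and the lowest immature or Remak-side library both stood at 253 CPM. No test was run between these states.

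Summed, the 8 genes made up 3.15% to 3.21% of all UMIs of myelinating-side SCs at P1 and 3.53% to 5.50% at P60, and 0.606% to 0.672% and 0.424% to 0.552% of those of immature or Remak-side SCs. The make-up of that sum differed between ages. Pmp22 took 48.8% to 49.3% of the members' UMIs on the myelinating side at P1 and 64.3% to 68.9% at P60, and Mbp took 33.0% to 33.3% and 14.0% to 19.0%. None of these ranges overlapped between ages.

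The states were compared in one fit over the 12 sums of 2 states in 6 libraries, by edgeR's quasi-likelihood test with Benjamini-Hochberg adjustment over all genes tested and a threshold of 0.05. At P1, 37% of 7165 genes were called (18.2% higher and 18.8% lower on the myelinating side), and all 8 members were called higher. Their log2 differences were 2.16 for Mbp (SE 0.06), 3.05 for Pmp22 (0.07), 2.84 for Mag (0.08), 2.12 for Prx (0.07), 5.38 for Ncmap (0.13), 2.47 for Cldn19 (0.09), 0.42 for Mal (0.06) and 2.41 for Pllp (0.08). The largest adjusted p by edgeR among them was that of Mal, 5.79e-09. Drp2, Gldn, Fa2h and Ugt8a, genes of the state gate, are themselves myelin genes. The direction of the members' calls between states is thus not independent of the gate. Each SE here and below was worked back from the test, as the absolute log2 value divided by the square root of F. For Ncmap, on 46 UMIs in the other state, it is smaller than counting error alone would give. In each of 3 libraries Mal was 1.17 to 1.35 times as high on the myelinating side, against 30.9 to 58.2 times for Ncmap, which rests on 10 to 20 UMIs per library in the other state.

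At P60, 17% of the genes were called (8.4% higher and 8.6% lower), and all 8 members were again called higher. The log2 differences were 2.28 for Mbp (SE 0.09), 3.80 for Pmp22 (0.08), 1.34 for Mag (0.20), 1.53 for Mal (0.11), 5.25 for Prx (0.28), 6.66 for Pllp (0.25) and 6.78 for Cldn19 (0.32). For Ncmap, at 0 UMIs in the immature or Remak state, only a bound can be given: pooled over the libraries, it was at least 233-fold higher on the myelinating side. The largest adjusted p by edgeR was that of Mag, 1.00e-07. With 11, 7 and 4 UMIs in the immature or Remak state, Prx, Pllp and Cldn19 have SEs smaller than counting error alone would give. The sizes for Prx and Cldn19 rest on P60 replicate 3, which held 10 of 11 and 4 of 4 of their UMIs in the immature or Remak state. Without it the difference was 7.13 for Prx, on a single UMI, had no finite size for Cldn19 and was 6.58 for Pllp. The median difference of the members was 2.44 at P1 and 4.52 at P60, the latter 5.195 without P60 replicate 3.

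The change of this step with age was tested as an interaction, for which 6.2% of genes were called (3.55% wider and 2.65% narrower at P60). The step widened by a log2 difference of 0.75 for Pmp22 (SE 0.10, adjusted p by edgeR 5.00e-08), 1.11 for Mal (0.13), 3.13 for Prx (0.35), 4.24 for Pllp (0.36) and 4.30 for Cldn19 (0.47). Without P60 replicate 3 that of Prx was 5.004, and that of Cldn19 had no finite size. The SEs of Prx, Pllp and Cldn19 are again smaller than counting error alone would give. The step narrowed for Mag by 1.50 on the log2 scale (SE 0.24, adjusted p by edgeR 1.17e-06). Ncmap was called as well (adjusted p by edgeR 4.07e-05), with no size to give against a group at 0, and it lost its call under a stricter gate (0.157). The step of Mbp was 0.12 wider at P60 (SE 0.11) and did not pass the test (adjusted p by edgeR 0.683), although without P60 replicate 3 it was 0.32 and just under the threshold (0.0495). The call of Pmp22 was lost when the library was not kept as a block (0.107).

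**Figure D2:**
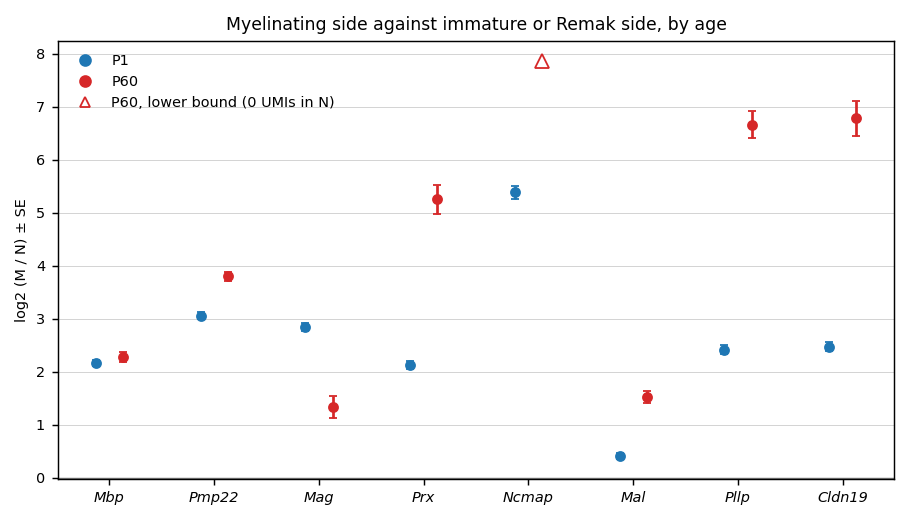
Difference between myelinating-side (M) and immature or Remak-side (N) SCs as log2 (M / N) for each member at P1 (blue) and P60 (red). Bars are the SE worked back from the F test, which for Prx, Pllp and Cldn19 at P60 and Ncmap at P1 is smaller than counting error. The triangle is the lower bound for Ncmap at P60, which had 0 UMIs in N. Mbp keeps nearly the same step (2.16 and 2.28), Mag has the smaller step at P60 (1.34 against 2.84), and Prx, Pllp and Cldn19 have steps of 5.25 to 6.78 at P60.

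Between ages, the members did not move as a block on the myelinating side. Mbp, Mag and Prx, the last unevenly over libraries, were lower at P60, and Pmp22, Ncmap, Mal, Pllp and Cldn19 were higher. The paper cautions that SCs from strongly myelinated nerves may be a subsample, since SC populations may differ in sensitivity to the procedure. Neither the part of such sampling nor that of SC stage in these and the other age differences of SCs was tested. Of 9545 genes tested in myelinating-side SCs, 21% were called (9.99% higher and 11% lower at P60), and all 8 members were called, 5 higher and 3 lower. The log2 changes were 1.04 for Ncmap (SE 0.12, adjusted p by edgeR 8.31e-08), 0.89 for Pllp (0.13, 7.36e-06), 0.84 for Pmp22 (0.18, 0.00107), 0.59 for Cldn19 (0.12, 4.92e-04) and 0.55 for Mal (0.12, 9.64e-04). They were -1.20 for Mag (0.14, 1.67e-07), -0.58 for Mbp (0.16, 0.0103) and -0.56 for Prx (0.19, 0.0338).

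These calls were not equally firm. Those of Pmp22, Mag, Ncmap and Pllp held in 13 of 13 alternative settings, those of Mal and Cldn19 in 12, that of Mbp in 9 and that of Prx in 6. Mbp and Prx lost theirs each time a P1 library was left out and with DESeq2 (adjusted p by DESeq2 0.0670 and 0.383), and Prx also without P60 replicate 2. Cldn19 lost its call without P60 replicate 1 (0.34, adjusted p by edgeR 0.0859). Leaving out a P1 library left 2664 to 2674 genes in the test in place of 9545 and raised all 8 changes by 0.20 to 0.31. Among the 8 genes, Prx alone overlapped between ages, and without P60 replicate 3 the change of Prx was -1.11.

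In immature or Remak-side SCs, 34.1% of 6197 genes were called (18% higher and 16% lower at P60). Ncmap did not pass the filter on low counts there, and of the 7 members tested 4 were called, all lower. Prx, Pllp and Cldn19 fell by 3.31, 3.31 and 3.60 on the log2 scale (SE 0.38, 0.37 and 0.52; adjusted p by edgeR 8.38e-06, 6.84e-06 and 7.35e-05). These SEs are smaller than counting error alone would give. Mbp fell by 0.61 (SE 0.15, adjusted p by edgeR 0.00578). The changes of Pmp22 (0.22, adjusted p by edgeR 0.347), Mag (0.43, 0.0978) and Mal (-0.40, 0.0957) did not pass the test. Without P60 replicate 3, the library with the high Scn7a level, Pmp22 (0.30), Mal (-0.70) and Ncmap were called too, while Mag was not. Under a stricter gate Pmp22 (0.48) and Mag (0.75) were called. That library held 10 of the 11 Prx UMIs and all 4 Cldn19 UMIs of this state at P60, and without it Prx fell by 5.86 on a single UMI and Cldn19, at 0, had no size to give.

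RNA of these genes in other cells of the same libraries gives the background for the low values, and in fibroblasts it was higher at P1 for the genes that follow. The level of Prx in fibroblasts was 32.4 to 37.2 CPM at P1 and 2.42 to 3.04 CPM at P60, that of Pllp 6.59 to 7.91 and 1.30 to 4.44 CPM, and that of Cldn19 6.50 to 7.75 and 0.665 to 2.07 CPM. For all of these, immature or Remak-side SCs at P1 lay above the fibroblasts of their library. Ncmap stood at 9.55 to 13.8 CPM in endothelial cells at P1, against 13.1 to 24.7 CPM in immature or Remak-side SCs. Pooled over the P1 libraries it stood at 17.3 CPM in mural cells and 19.5 CPM in immature or Remak-side SCs. In P1 replicate 1, mural cells held 39 Ncmap UMIs among 943605, a higher level than the 16 among 779816 of immature or Remak-side SCs. Fibroblast markers moved with the states: their 8 genes summed to 3948 to 4119 CPM in myelinating-side and 8066 to 8967 CPM in immature or Remak-side SCs at P1, and to 1718 to 3672 and 3540 to 9874 CPM at P60, with at most 1 of 8 at 0. Their part in the differences between states was not tested.

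Over all SCs together, mixed as they were sorted, the age comparison called 36.4% of 11243 genes (18.2% higher and 18.2% lower) and 4 of 8 members. Mag and Prx fell by 1.34 and 1.33 on the log2 scale (SE 0.15 and 0.19, adjusted p by edgeR 1.10e-05 and 8.21e-05), and Mbp fell by 0.98 (0.23, 0.00374), from 7494 to 7797 CPM at P1 to 2574 to 5254 CPM at P60. Ncmap rose by 0.40 (0.14, 0.0335), a call that was lost in 4 of 13 alternatives. Pmp22 (0.29), Pllp (0.20), Mal (-0.02) and Cldn19 (-0.14) did not pass the test, with SEs of 0.15 to 0.25. Without P60 replicate 3, Pmp22 and Pllp were called at changes of 0.50 and 0.49. Myelinating-side cells were 1802 of 3002 SCs at P1 and 103 of 287 at P60, so these sums mix the states in different proportions.

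**Figure D3:**
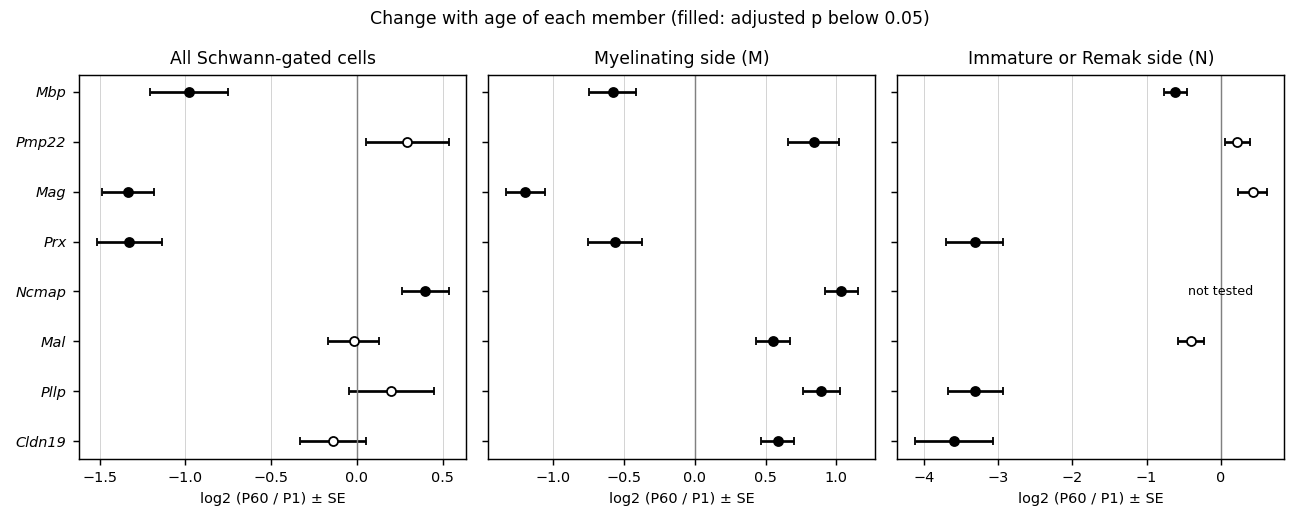
Change of each member from P1 to P60 as log2 (P60 / P1) with its SE, in all SCs, in myelinating-side SCs and in immature or Remak-side SCs; filled points passed an adjusted p of 0.05 and the horizontal scales differ between panels. On the myelinating side 5 members are higher and 3 lower, and on the immature or Remak side Prx, Pllp and Cldn19 fall by 3.31 to 3.60 while Ncmap was not tested.

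Of 17 other myelin genes, 7 rose and 3 fell with age over all SCs, against 18.2% higher and 18.2% lower among all genes tested. The 6 with the largest called changes were Cd59a (log2 change 3.69), Drp2 (2.65), Mpp6 (-2.28), Cd9 (1.71), Fxyd3 (1.44) and Ugt8a (-0.78). Drp2, a dystrophin-related protein that binds periaxin, and Ugt8a, an enzyme of galactolipid synthesis, are among the genes of the state gate, as are Fa2h and Gldn. On the myelinating side 9 of 16 tested rose and 1 fell, against 9.99% higher and 11% lower among all genes tested there. The 9 include Drp2, Fa2h and Gldn, by which these cells were selected, so the count is a description.

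The share of cells with at least 1 UMI of a gene was compared after thinning every cell to 1500 UMIs, which left out 0 SCs at P1 and 7 at P60. In myelinating-side SCs, Ncmap was found in 50.7% ± 1.91 of cells at P1 and of 80.8% ± 11.8 at P60 (SD over 3 libraries, n = 3), Pllp in 64.1% ± 0.767 and 89.8% ± 5.96, Cldn19 in 54.8% ± 1.52 and 75.6% ± 15.0, and Mal in 81.3% ± 1.14 and 89.1% ± 5.18. Mag went the other way, from 65.0% ± 1.73 to 47.2% ± 10.7. None of these overlapped between ages, whereas Mbp (98.6% and 96.2%), Pmp22 (97.3% and 98.1%) and Prx (72.2% and 62.3%) did.

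In immature or Remak-side SCs the share of cells with Prx went from 28.1% ± 2.73 to 2.56% ± 4.44, that with Pllp from 22.8% ± 0.905 to 1.24% ± 1.32, that with Cldn19 from 12.6% ± 3.49 to 0.733% ± 1.27 and that with Mbp from 94.1% ± 2.42 to 81.8% ± 2.47, without overlap. Unthinned, Prx was found in 60.5% and 4.01%, Pllp in 51.1% and 5.14%, and Cldn19 in 37.2% and 1.36%. In fibroblasts thinned to the same depth, Prx was found in 5.55% and 0.373%, Pllp in 1.15% and 0.425% and Cldn19 in 1.42% and 0.146%. Ncmap was found in 1.76% of immature or Remak-side SCs at P1. The share was 1.97% in endothelial cells, 0.942% in mural cells, 0.762% in fibroblasts and 0.597% in immune cells. Its range over libraries overlapped that of each of these classes, and a difference from them was not tested. At P60 Ncmap was found in 0 of 164 immature or Remak-side SCs, which allows up to 1.83%. This limit covers counting error only.

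Of 24 such comparisons over 8 genes and SCs as a whole or by state, 16 did not overlap between ages. The exact two-sided permutation test on 3 against 3 libraries cannot go below p = 0.1, and after adjustment over the 24 comparisons none was under 0.15.

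Counted per cell, myelinating-side SCs held UMIs of 5.84 ± 0.0132 of the 8 genes at P1 and of 6.39 ± 0.0370 at P60 (SD over libraries, n = 3) in thinned cells, and immature or Remak-side SCs 3.46 ± 0.0839 and 2.70 ± 0.167. Cells with at least 5 members were 79.4% of the first state at P1 and 90.6% at P60, and 16.6% and 0.366% of the second. Proliferating SCs at P1 held 3.33 and fibroblasts 0.699, so that the members per cell separated SCs of every state from fibroblasts.

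In the other cell classes the members fell into 3 patterns. Mbp, Mag, Prx, Ncmap and Cldn19 were at levels far under those of SCs and were called lower at P60 in fibroblasts and endothelial cells, Pmp22 was at 341 to 472 CPM in fibroblasts at both ages, and Mal and Pllp rose in endothelial cells.

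Mal stood at 20.8, 12.04 and 30.8 CPM in endothelial cells at P1 and at 1139, 1195 and 1094 CPM at P60. Pllp stood at 18.0, 22.0 and 20.2 CPM at P1 and at 116, 112 and 80.7 CPM at P60. The ages did not overlap for either gene. Among 10967 genes tested in endothelial cells, 40.2% were called (21.2% higher and 19% lower), and all 8 members were called, with Mal and Pllp higher by a log2 change of 5.75 and 2.36 (adjusted p by edgeR 1.36e-08 and 1.73e-06). These calls held in 12 of 12 alternatives. At P60, 83.3% of all Mal UMIs lay in endothelial cells (81.5% to 84.4% over the libraries) and 7.59% in SCs, against 91.4% in SCs at P1. For Pllp the shares at P60 were 50.6% in endothelial cells and 27.8% in SCs. These shares also follow the cells captured: SCs were 25.5% to 25.7% of cells at P1, as set by the sort, and 1.90% to 2.84% at P60, and endothelial cells 5.86% to 6.36% and 13.7% to 15.8%.

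In thinned cells, the share of endothelial cells with Mal went from 3.29% ± 1.63 at P1 to 46.5% ± 1.04 at P60 (SD, n = 3), and that with Pllp 1.93% ± 0.990 and 11.1% ± 1.20. In fibroblasts of P60, Mal was found in 0.873% of thinned cells. At least 5 Mal UMIs were held by 43.4%, 40.9% and 32.5% of all P60 endothelial cells.

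At P60 the endothelial cells with Mal were mostly cells with Slc2a1. Split by 2 genes chosen after the values were seen, Slc2a1, the glucose transporter of barrier endothelium, and Cd300lg, a gene of capillary endothelial cells, P60 cells with Slc2a1 alone held 1768, 1913 and 1803 CPM of Mal, and a UMI of it was found in 94.3%, 92.7% and 89.5% of 209, 289 and 324 cells. Cells with Cd300lg alone held 16.5, 6.72 and 19.8 CPM, with a UMI in 7.53%, 3.21% and 4.32% of 146, 187 and 185 cells. Pllp followed, at 174, 173 and 128 CPM against 11.4, 4.48 and 6.18 CPM.

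At P1 the same split of endothelial cells gave 35.1, 3.00 and 36.8 CPM of Mal with Slc2a1 alone and 27.4, 3.24 and 29.1 CPM with Cd300lg alone, on 34 to 85 cells per library, and no such gap. Median depth at P60 was 4560 to 6199 UMIs in the Slc2a1 cells and 3769 to 4472 in the Cd300lg cells. Since the genes of the split were picked on these values, no test is given.

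**Figure D4:**
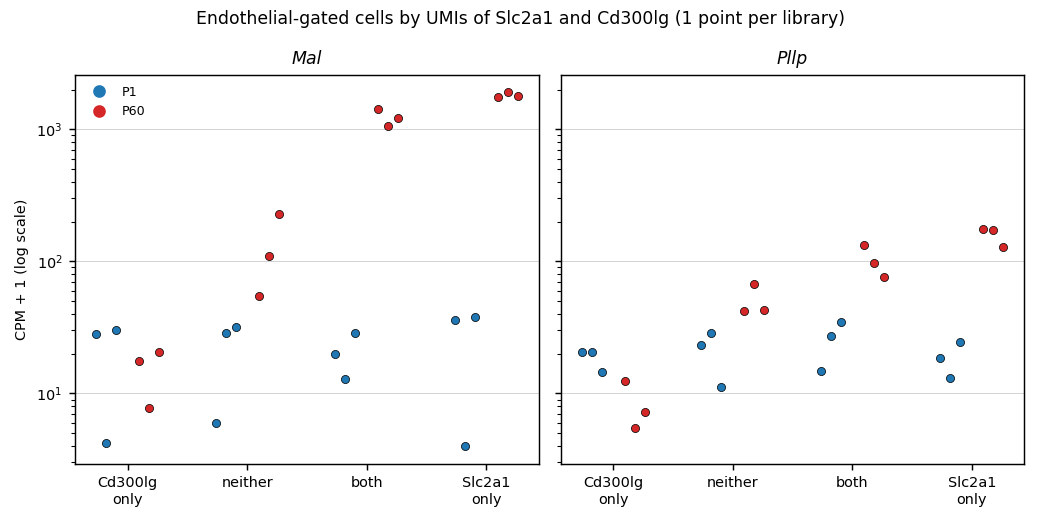
Level of Mal and Pllp in endothelial-gated cells split by whether they hold a UMI of Slc2a1, Cd300lg, both or neither, with CPM + 1 on a log scale and 1 point per library (blue P1, red P60). At P60 Mal is at 1065 to 1913 CPM in the groups with Slc2a1 and at 6.72 to 19.8 CPM with Cd300lg alone, whereas at P1 no group exceeds 36.8 CPM.

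Pmp22 stood at 402, 406 and 407 CPM in fibroblasts at P1 and at 453, 472 and 341 CPM at P60. These overlapped, and the change was 0.15 on the log2 scale (adjusted p by edgeR 0.349, not called). Without P60 replicate 3 it was 0.33 and called. A UMI of Pmp22 was found in 43.6% of thinned fibroblasts at P1 and 42.9% at P60. Perineurial cells, of which only P60 had enough, held 354, 339 and 243 CPM of Pmp22.

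Among fibroblasts at P1, those with epineurial markers held 638, 623 and 616 CPM of Pmp22 and those with endoneurial markers 247, 267 and 269 CPM, without overlap. At P60 the values were 463, 492 and 361 CPM against 369, 370 and 252 CPM. These ranges overlapped, although in each P60 library the epineurial value was the higher. Between ages the epineurial values did not overlap and were lower at P60, whereas the endoneurial values overlapped. Cells with epineurial markers were 975 of 5080 fibroblasts at P1 and 2669 of 4923 at P60. The sums over all fibroblasts thus mix these cells in different proportions. In immune cells Pmp22 was at 207, 236 and 240 CPM at P1 and 231, 197 and 193 CPM at P60, and in endothelial cells it fell by 0.86 on the log2 scale (SE 0.22, adjusted p by edgeR 0.00732).

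In fibroblasts all members but Pmp22 were lower at P60. Of 13948 genes tested in fibroblasts, 57.8% were called (28.3% higher and 29.4% lower), and 7 of 8 members were called, all lower. Mbp fell from 113, 116 and 118 CPM to 15.2, 23.5 and 13.3 CPM, by 2.63 on the log2 scale (adjusted p by edgeR 3.31e-06). Prx fell by 3.65, Mag by 3.45, Cldn19 by 2.40, Ncmap by 1.34, Pllp by 1.26 and Mal by 0.68, the last a call that was lost without P1 replicate 1, P1 replicate 3 or P60 replicate 1. The part of carried-over RNA in these falls was not tested.

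In endothelial cells Mbp, Prx, Mag and Cldn19 fell by 2.65, 2.54, 2.80 and 2.72, and Ncmap by 1.56. In mural cells 32.3% of 8443 genes were called (16.9% higher and 15.4% lower), and of the 5 members tested Mbp, Prx and Mag fell by 3.46, 3.71 and 3.42, while Pmp22 and Mal were not called and the other 3 did not pass the filter on low counts. The mural cells of P1 replicate 1 held 480 CPM of Mbp against 107 and 116 CPM in the other P1 libraries, and Mbp fell by 2.40 without that library. Cldn19 had 0 of 2920916 UMIs in mural cells at P60, which allows up to 1.03 CPM.

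In immune cells 37.6% of 10119 genes were called (20.6% higher and 17% lower), and Mbp, Prx, Pllp, Cldn19 and Mag, 5 of 8 members, fell by 1.32, 2.37, 1.74, 1.93 and 0.87, while Ncmap (-1.02, adjusted p by edgeR 0.149) overlapped between ages and, like Mal and Pmp22, was not called. The calls of Cldn19 and Mag were lost without P1 replicate 3, that of Cldn19 also without P60 replicate 2 and that of Mag also without P60 replicate 3. Mbp stood at 144, 129 and 136 CPM there at P1 and at 56.6, 53.0 and 44.1 CPM at P60. Mag stood at 14.0, 13.6 and 19.0 CPM and at 9.54, 8.74 and 6.04 CPM. At P60 Mag in immune cells was 2.66% of its SC level.

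**Figure D5:**
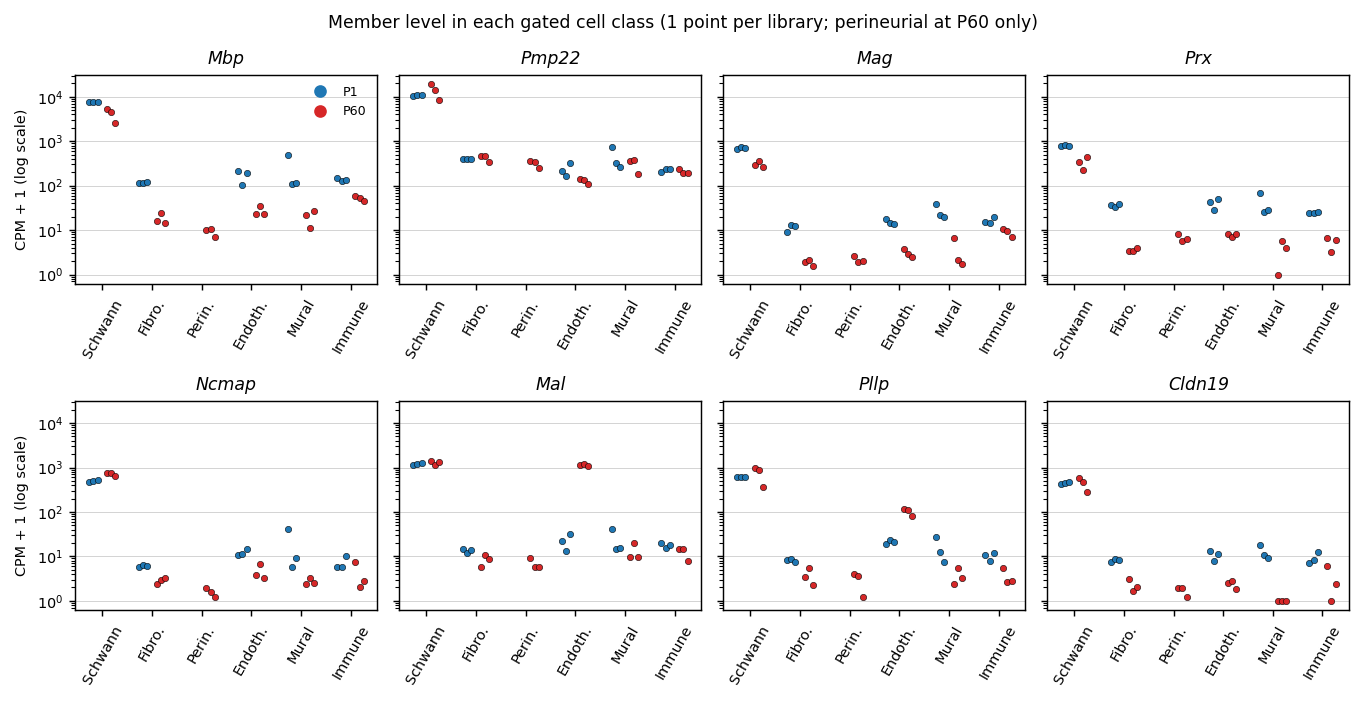
Level of each member in Schwann, fibroblast, perineurial (P60 only), endothelial, mural and immune cells, with CPM + 1 on a log scale and 1 point per library (blue P1, red P60). Outside SCs, Mal in endothelial cells at P60 (1094 to 1195 CPM) overlaps the SC range at that age (1109 to 1387 CPM), and Pmp22 in fibroblasts (341 to 472 CPM) overlaps between ages.

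Each member's level in a class is also given as a percentage of its level in all SCs captured in the same library. At P1 fibroblasts held 1.51% of the SC level for Mbp, 1.46% for Mag, 1.01% for Ncmap, 1.04% for Mal, 1.20% for Pllp, 1.59% for Cldn19, 3.75% for Pmp22 and 4.48% for Prx. At P60 they held 0.274% for Ncmap, 0.281% for Mag, 0.288% for Cldn19, 0.368% for Pllp, 0.438% for Mbp, 0.591% for Mal, 0.838% for Prx and 3.18% for Pmp22.

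In other classes Prx stood at 5.12% and 2.18% of its SC level in endothelial cells at P1 and P60 and at 1.81% in perineurial cells at P60. The differences between members in these percentages were not tested. The part of RNA carried from SCs into other droplets was not tested either.

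By pattern over 42 sums (classes and SC states by library), Mag was most like Tsc22d4 (Pearson r of log2(CPM + 10) 0.969), Prx like the gate gene Pou3f1 (0.967), Ncmap like Slc36a2 (0.982), Cldn19 like Smco3 (0.982), Pmp22 like Mapk8ip1 (0.960), Pllp like Elovl7 (0.933) and Mal like Reln (0.918), out of 8411 genes. The sums share libraries and, for all of these genes, contrast SCs with other classes, so these values are a description. Among the members themselves r ran from 0.619 for Ncmap and Mal to 0.978 for Mbp and Mag. Mal and Pllp, the genes found in endothelial cells, had the lowest of these likeness values.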

How the data were processed

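The tables hold UMI counts per gene and cell that the authors made with Cell Ranger 2.0.2 and deposited as filtered matrices. The submitters' notes name build GRCm38.p5, while the methods name a human build. Cells with 500 to 5000 genes were kept, the study's filter, which left more cells than the study states, and no doublet caller was run. The members and all gene lists were chosen with earlier results of these data known. A panel gene counted as present in a cell above its library's mean CPM. A cell joined a class with at least 3 panel genes present and a lead of 2 over the next class, which left 11.1% of P1 and 10.6% of P60 cells ungated. SC states needed a lead of 1. These thresholds were set after panel counts were seen. Named genes are the 8 members, the 6 largest called changes among 17 other myelin genes, and the most similar gene of each member other than Mbp. Slc2a1 and Cd300lg were added after values were seen.

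UMIs were summed per library and class and tested across libraries, which the paper describes as independent samples. The tests used edgeR 4.0.16 in R 4.3.3 (TMM, filterByExpr, quasi-likelihood F test, Benjamini-Hochberg). DESeq2 1.42.0, library size alone, no filter, a stricter gate, a mitochondrial limit of 10%, removal of cells with 10 or more Dcn UMIs, a replicate or library block and leaving out each library were the alternatives. The fits were tested on simulated counts with known changes. Perineurial cells at P1 (20 in all) were left out of levels. Gene positions are from GENCODE M21, and promoter windows from RefSeq for 7 members. A reference gene that these comparisons also used is not reported here.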

Additional observations from a re-analysis of the deposited data

Results flagged for a closer look

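The step between myelinating-side and immature or Remak-side SCs differed between P60 and P1 for 7 of the 8 members by the interaction test of edgeR, fitted across all genes, of which 6.2% were called. On the log2 scale, the step of Pmp22 was 0.75 wider at P60, that of Mal 1.11, that of Prx 3.13, that of Pllp 4.24 and that of Cldn19 4.30. The step of Mag changed by -1.50, so it was narrower at P60. For Ncmap, at 0 UMIs in immature or Remak-side SCs at P60, the adjusted p was 4.07e-05 and no size is given. The directions were the same in all 13 alternatives for these 7 genes, and the calls were lost for Pmp22 without the library as a block and for Ncmap under a stricter gate. The P60 values of Prx, Pllp and Cldn19 in the immature or Remak state rest on 11, 7 and 4 UMIs over 3 libraries, and without P60 replicate 3 the value for Prx was 5.004 and Cldn19 had no finite size.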

How the results depend on the processing

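Over the members and comparisons, 959 values were recomputed under an alternative: 899 kept their direction and their side of the threshold, 28 lost the call, 12 gained one and 20 changed sign, none of the 20 with a call. The count of members called in immature or Remak-side SCs went from 4 to 7 without P60 replicate 3 (range 4 to 7 over the libraries left out), in mural cells from 3 to 7 without the filter on low counts (range 3 to 5) and in immune cells from 5 to between 3 and 6. The sign changed for Mal over all SCs at library size alone (0.0878), under a stricter gate (0.0457) and without cells of 10 or more Dcn UMIs (0.12), and ran from -0.18 to 0.21 over the libraries left out. It changed for Cldn19 over all SCs without those cells (0.0317) and ran from -0.46 to 0.0896, for Pllp from -0.14 to 0.49 and for Pmp22 from -0.0883 to 0.51. For Pmp22 it also changed in immature or Remak-side SCs without the filter (-0.10, range -0.04 to 0.30), and ran from -0.77 to 0.12 in mural and from -0.15 to 0.0133 in immune cells. The change of the state step of Mbp ran from -0.0051 to 0.32. The cause was not tested.

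Over all genes, 4087 calls in SCs became 2256 to 2316 and 2006 on the myelinating side became 1047 to 1093 without a P1 library, where fewer genes passed the filter, and 2652 between the states at P1 became 1493 to 1599. The interaction called 444 genes, 283 with DESeq2, 248 with no replicate block and 286 without P1 replicate 1. Ncmap in immature or Remak-side SCs passed into the test only without the filter or without a P60 library. Library size alone moved the median change of all genes in SCs from -0.02 to 0.09, and the split of calls from 2044 higher and 2043 lower to 2279 and 1654. Without the filter the median on the myelinating side was -0.67.

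The replicate number paired the libraries weakly at most (correlations of same-numbered deviations -0.037 to 0.104). In fibroblasts and endothelial cells every library correlated best with its own number, and in the other groups not every library did. With a replicate block, 3 members were called over all SCs (Ncmap lost, adjusted p by edgeR 0.105), 8 on the myelinating side, 4 on the other, 5 in immune cells, 3 in mural cells, 8 in endothelial cells and 7 in fibroblasts. With no replicate block in the comparison of states, 8 were called at each age and 6 in the interaction. Depth limits the P60 states, with 30 to 98 cells per library, and counts of 4 to 11 UMIs stand behind the lowest values there.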
